A study of Mus musculus with 4 samples.

Results

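The genes described here encode the proteins of the mitochondrial ribosome, and were chosen by name alone: every row of the table whose symbol begins with Mrpl or Mrps followed by a digit. There were 78 such rows among 25630. RNA had been sequenced from BEKO, a wild-type mouse line of thymic lymphoma cells, with 2 libraries for low and 2 for high cell density. Neither density is given as a number of cells, and the medium and time in culture are not in the labels. Since no label says that the libraries of a density are separate cultures, p-values reflect the spread between these libraries alone, which may be technical. All 4 libraries come from this 1 line, no label names a treatment, and density is the sole difference given. Values are TPM, transcript abundances scaled to a fixed total, which are corrected for transcript length and can therefore be set side by side between genes. They are relative: in such bulk libraries, fewer cells that express a gene and less of its RNA per cell cannot be told apart.

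Mitochondria make a small set of respiratory chain subunits on ribosomes of their own. The ribosomal RNAs of these particles are encoded in the mitochondrial genome, whereas all of their proteins are encoded in the nucleus, made in the cytosol and imported. Many of the proteins have bacterial homologues and others were added in the mitochondrial lineage. By the known structure of the mammalian particle, 51 of the 78 rows encode large subunit proteins and 26 small subunit proteins. By name there were 49 Mrpl and 29 Mrps rows. The difference arises because Mrps30 and Mrps18a encode proteins found in the large subunit, and because Mrps36 encodes a subunit of the 2-oxoglutarate dehydrogenase complex and not of the ribosome. A further 5 mitoribosomal proteins carry other names (Gadd45gip1 in the large subunit; Dap3, Ptcd3, Chchd1 and Aurkaip1 in the small one), which brings the measured genes to 52 and 30.

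The label of the cells was checked against markers. All 10 T lineage markers found by symbol were expressed, with a summed level of 6217 to 7155 TPM per library. Single markers differed in both directions. Rag1 was at 609 and 480 TPM at low and 185 and 181.5 TPM at high density, and Ptprc at 466 and 367 against 636 and 660 TPM. Of 27 markers of B, myeloid, erythroid, epithelial, fibroblast and endothelial cells, 7 reached a mean of 1 TPM. These were Pecam1 (37.4 to 62.5 TPM per library), Cd68 (8.46 to 17.7 TPM), Itgam (6.62 to 16.1 TPM), Fcer1g, Alas2, Col1a1 and Col1a2. The summed level of the fibroblast markers was 45.0 TPM in low density library 1 and between 0.321 and 0.673 TPM in the other libraries. Its part in the results was not tested, and values without that library are given where a call changed.

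The promoters of genes with the largest differences are shown so that their motifs can be set beside the values. They are printed 5′ to 3′ on the gene's own strand, as the 250 bases before the RefSeq start in GRCm38.p6, for the 3 largest decreases and the 2 largest increases among genes with 1 start in the table. This is not the build named for the expression values. Capitals mark the letters of 4 motifs searched on both strands: GCGCA and GCGC with any 1 base between them for NRF1, a nuclear factor known for activating genes of mitochondrial function, CCGGAAG for ETS factors such as GABP, AAGATGGC for YY1, and the E-box CACGTG, which reads alike on both strands.
Mrpl12: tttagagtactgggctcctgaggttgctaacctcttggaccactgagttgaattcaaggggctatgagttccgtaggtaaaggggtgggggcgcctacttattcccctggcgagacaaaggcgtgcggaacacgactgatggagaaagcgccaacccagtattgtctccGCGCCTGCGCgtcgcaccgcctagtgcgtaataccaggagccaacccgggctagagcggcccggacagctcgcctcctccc
Mrpl20: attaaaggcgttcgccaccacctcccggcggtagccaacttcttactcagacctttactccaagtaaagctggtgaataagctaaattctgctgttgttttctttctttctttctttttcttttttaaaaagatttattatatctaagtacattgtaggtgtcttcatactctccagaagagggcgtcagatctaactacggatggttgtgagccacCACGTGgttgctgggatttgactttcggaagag
Mrpl36: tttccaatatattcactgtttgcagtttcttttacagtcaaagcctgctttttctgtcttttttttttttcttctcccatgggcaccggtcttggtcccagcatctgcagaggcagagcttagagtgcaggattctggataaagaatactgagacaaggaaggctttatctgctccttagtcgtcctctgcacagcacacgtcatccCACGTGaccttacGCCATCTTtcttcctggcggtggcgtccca
Mrpl24: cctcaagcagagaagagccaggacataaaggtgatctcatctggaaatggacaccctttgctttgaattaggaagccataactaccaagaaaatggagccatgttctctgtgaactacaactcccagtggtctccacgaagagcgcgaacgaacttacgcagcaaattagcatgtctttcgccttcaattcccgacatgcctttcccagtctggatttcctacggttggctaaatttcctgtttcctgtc
Mrpl43: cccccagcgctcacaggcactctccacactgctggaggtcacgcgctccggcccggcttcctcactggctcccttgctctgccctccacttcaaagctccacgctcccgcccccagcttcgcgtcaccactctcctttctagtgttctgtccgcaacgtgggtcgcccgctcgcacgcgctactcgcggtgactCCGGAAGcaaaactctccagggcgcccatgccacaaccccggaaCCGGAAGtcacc
The Mrpl12 stretch (chr11:120484387-120484636, plus strand) holds 1 NRF1 match, on the minus strand, starting 81 bases before the start site. The Mrpl20 stretch (chr4:155802628-155802877, plus strand) holds 1 E-box. That of Mrpl36 (chr13:73330759-73331008, plus strand) holds an E-box and a YY1 match on the minus strand. The Mrpl43 stretch (chr19:45006443-45006692, minus strand) holds 2 ETS matches, and the Mrpl24 stretch (chr3:87919294-87919543, plus strand) none of the 4.

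Promoters were matched for 69 of the 78 genes. Mrpl4, Mrpl13, Mrpl15, Mrpl19, Mrpl38, Mrpl54, Mrps28, Mrps34 and Mrps35 were not matched. In the 300 bases from 250 before to 50 after the start, 26 of the 69 genes (37.7%) held the ETS letters, against 22.95% of 8418 genes that were expressed in these cells and had a promoter in the table, and 9.93% of all 27025 genes with one. The YY1 letters were held by 12 (17.4%, against 6.03% and 3.19%) and the NRF1 letters by 13 (18.8%, against 13.0% and 5.19%). The E-box was held by 5 (7.25%, against 12.1% and 8.09%). At least 1 of the ETS, YY1 and NRF1 motifs was found for 43 of the 69 (62.3%, against 36.6% of the expressed genes). A match is a run of letters and does not show that a factor binds there.

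Genes with and without a motif were also set beside each other by their response to density. The median log2 fold change, high minus low density on the scale of log2(TPM + 1), was −0.22 for the 26 genes with the ETS letters and −0.28 for the 43 without, and −0.26 for the 12 with and −0.23 for the 57 without the YY1 letters. It was −0.10 for the 13 with and −0.27 for the 56 without the NRF1 letters. The 5 genes with an E-box (Mrpl2, Mrpl20, Mrpl36, Mrpl37 and Mrps18c) had a median of −0.44, against −0.23 for the other 64. These are descriptions of small and overlapping sets, without a test.

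Every one of the 78 genes was well above the filter of a mean of 1 TPM. The median over the genes of the mean level was 90.9 TPM, against 34.3 TPM over all 10936 rows tested. Levels differed widely between proteins of the same particle. In the large subunit they reached from 10.4 TPM (Mrpl23) to 395 TPM (Mrpl18), and in the small subunit from 15.6 TPM (Mrps25) to 320 TPM (Mrps28). The subunits themselves were alike, with medians of 88.2 TPM for the large and 96.0 TPM for the small. Genes with a bacterial homologue had a median of 93.6 TPM in the large and 105 TPM in the small subunit, and those without one 87.6 and 65.1 TPM.

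The most abundant RNAs of each subunit were not called, apart from Mrpl12, which is described further on. Mrpl18, whose product lies beside the structural RNA of the central protuberance, was at 378 and 475 TPM at low and 366 and 361 TPM at high density. Mrpl33 was at 317 and 438 TPM at low and 271 and 374 TPM at high density. Mrps28, the mitochondrial counterpart of bacterial protein S1, was at 314 and 406 TPM at low and 232 and 328 TPM at high density. Mrpl52 was at 272 and 285 TPM against 249 and 283 TPM, and Mrpl54 at 244 and 296 TPM against 178 and 274 TPM. Mrps16 was at 181 and 241 TPM against 204 and 224 TPM. Of these genes, the groups were apart for Mrpl18 alone, by a narrow margin. Across the 78 genes, the correlation of log2 levels was 0.987 (Pearson's r) for the low density pair, 0.954 for the high density pair and 0.935 to 0.950 across groups. These correlations are across genes of the same libraries and are given as a description.

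At the other end, Mrpl23 was at 8.71 and 12.0 TPM at low and 8.08 and 12.9 TPM at high density, Mrpl17 at 17.0 and 18.4 TPM against 9.76 and 13.6 TPM, and Mrps25 at 18.6 and 19.3 TPM against 12.8 and 11.8 TPM. Mrpl48 was at 19.7 and 22.0 TPM against 16.9 and 23.6 TPM, and Mrps2 at 37.0 and 39.9 TPM against 18.05 and 43.9 TPM. RefSeq lists 6 named pseudogene copies, of Mrpl23, Mrpl27, Mrpl48 and Mrps36. None is a row of the table, and how reads shared with such copies were assigned is not stated in the sources used here, so the levels of these 4 genes are uncertain.

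**Figure D1:**
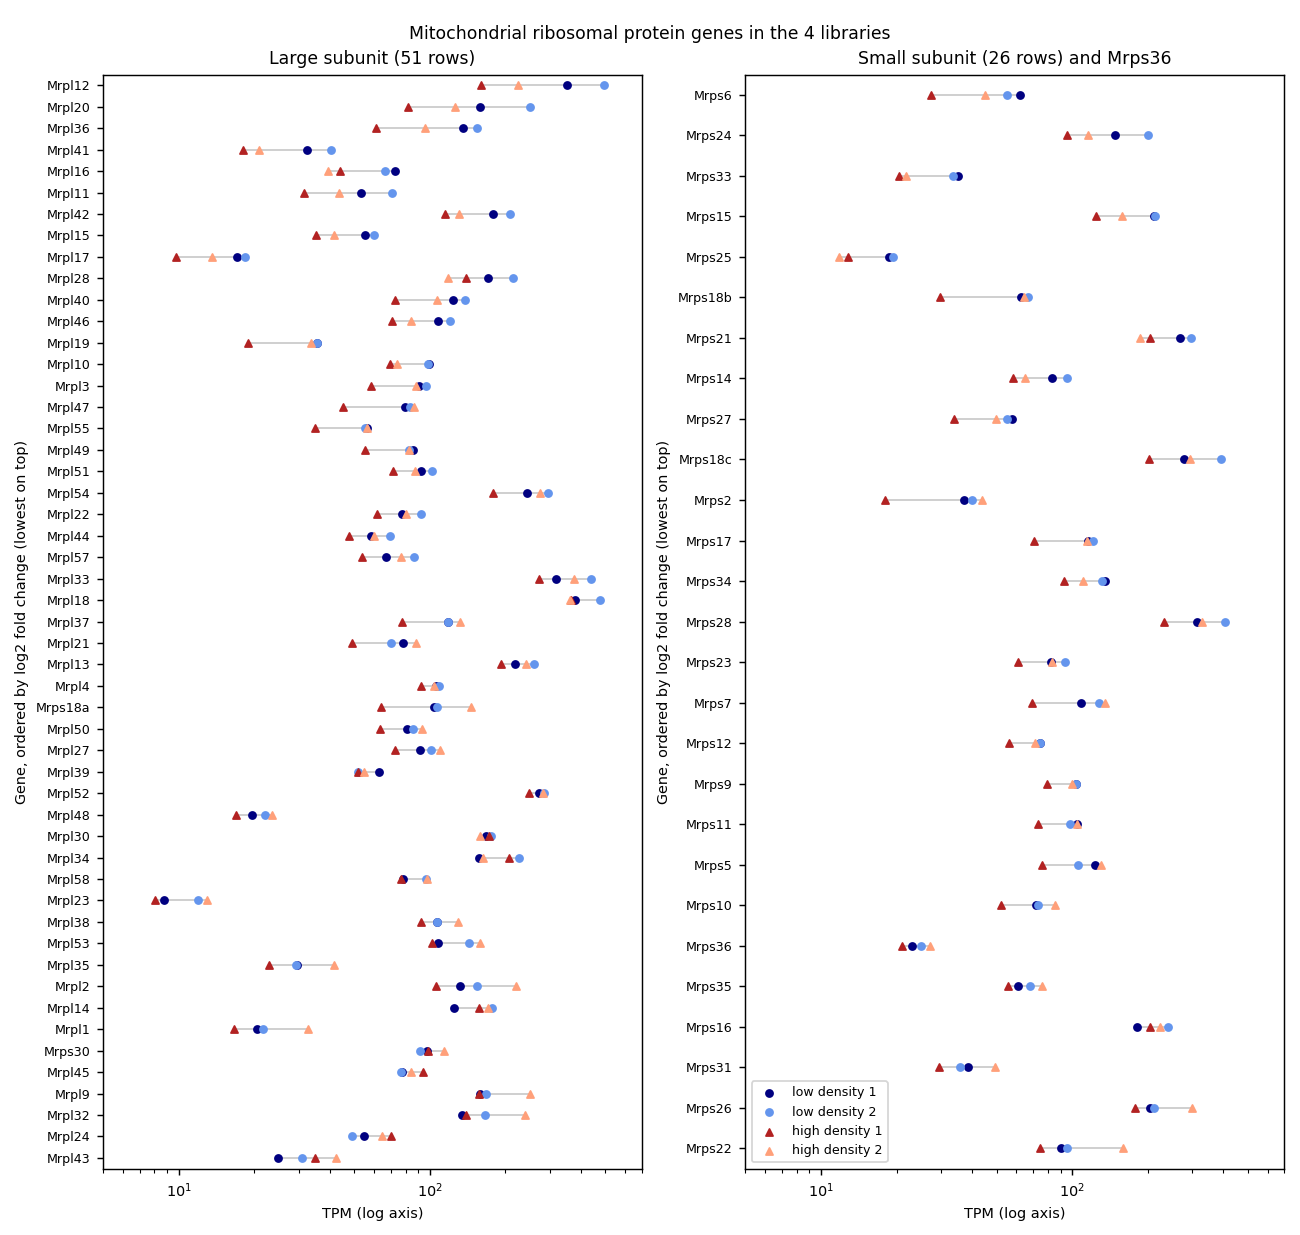
Level of each gene in the 4 libraries (TPM, log axis), with circles for low and triangles for high density and a grey line over the range; genes are ordered by log2 fold change, lowest on top, for the large subunit (left) and for the small subunit with Mrps36 (right). The circles of a gene mostly lie close together, and high density library 1 (dark red) is the lowest point for most genes.

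Most of the genes had lower values at high density, by a small amount, and 1 passed the test. The median was −0.24 over the 78 genes and 0.12 over all rows tested, and 59 of 78 (75.6%) lay below 0, against 40.3% of all rows. Limma, fitted across all rows, called 1 of the 78 lower and 0 higher at a Benjamini-Hochberg adjusted p under 0.05. Over all rows, 6.68% were called: 2.11% lower and 4.57% higher, so the count of 1 is near the background. At an unadjusted p under 0.05, 15 were lower and 0 higher, against 7.76% and 15.7% of all rows. In 31 of the 78 (of which 19 in the large and 12 in the small subunit) both high density libraries lay below both low density libraries, against 20% of all rows. In 4, all in the large subunit, they lay above, against 34.7%.

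The size of the decrease depended on which high density library was read. In high density library 1 the median gene lay −0.47 from the low density mean and 69 of 78 genes were below both low density libraries, against −0.02 and 44.1% for all rows. In high density library 2 the median gene lay at −0.02, with 32 genes below and 29 above both low density libraries, whereas the median of all rows was 0.27, with 25.4% below and 62.0% above. Of the 78 genes, 69 (88.5%) were higher in high density library 2 than in library 1, against 70.9% of all rows. The low density libraries differed too: 61 of the 78 (78.2%) were higher in library 2 than in library 1, against 30.0% of all rows. The median difference in log2 level between these low density libraries was 0.10 for the 78 genes and −0.12 for all rows. The pooled SD between the libraries of a group was 0.17 at low and 0.40 at high density for these genes (0.28 and 0.43 for all rows), so the spread between the high density libraries exceeded the median change. Without high density library 1 the median was −0.02, with 11 genes called lower and 7 higher (7.88% and 26.3% of all rows). Without high density library 2 it was −0.47, with 29 called lower and 0 higher (11.7% and 11.9% of all rows). These fits rest on the narrow spread of the low density pair.

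The position of the genes within each library differed less between the high density libraries. The median log2 level of the 78 genes exceeded that of the tested rows of the same library by 1.48 and 1.69 in the low density libraries and by 1.13 and 1.24 in the high density libraries. On this scale the groups did not overlap, but the gap between them was little larger than the difference between the low density libraries. With 2 libraries in each group an exact permutation test cannot go below p = 0.333, so none was run.

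**Figure D2:**
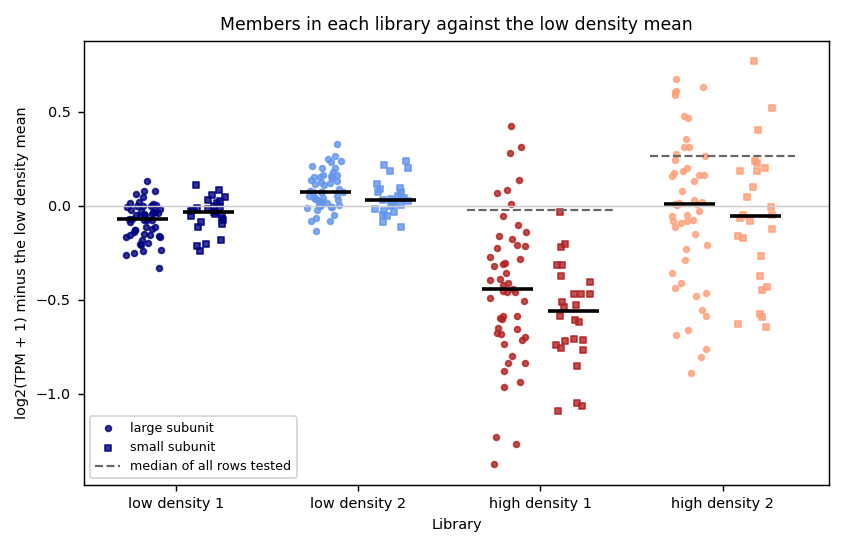
Difference of each gene from its low density mean in each library (log2(TPM + 1)), circles for large and squares for small subunit genes, black bars for their medians and dashed lines for the median of all rows tested in the high density libraries. Both high density libraries have their gene medians below the dashed line, at −0.44 (large) and −0.56 (small) in library 1 and at 0.01 and −0.06 in library 2.

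The subunits were also compared by their summed levels. The summed level of the large subunit genes was 5766 and 6776 TPM at low and 4653 and 6029.6 TPM at high density. That of the small subunit genes was 3072 and 3454 TPM at low and 2230.3 and 3128 TPM at high density. Both sums were lowest in high density library 1 and overlapped between groups. The ratio of the large to the small sum was 1.88 and 1.96 in the low and 2.09 and 1.93 in the high density libraries, also overlapping. The median log2 fold change was −0.22 in the large subunit, where 38 of 51 genes lay below 0, and −0.38 in the small subunit, where 21 of 26 did. The difference between these medians was not tested. By origin, the medians were −0.22 (bacterial homologue) and −0.17 (without one) in the large subunit, and −0.39 and −0.30 in the small one. Of the small subunit genes with a bacterial homologue, 16 of 17 lay below 0, and of those without one 5 of 9.

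**Figure D3:**
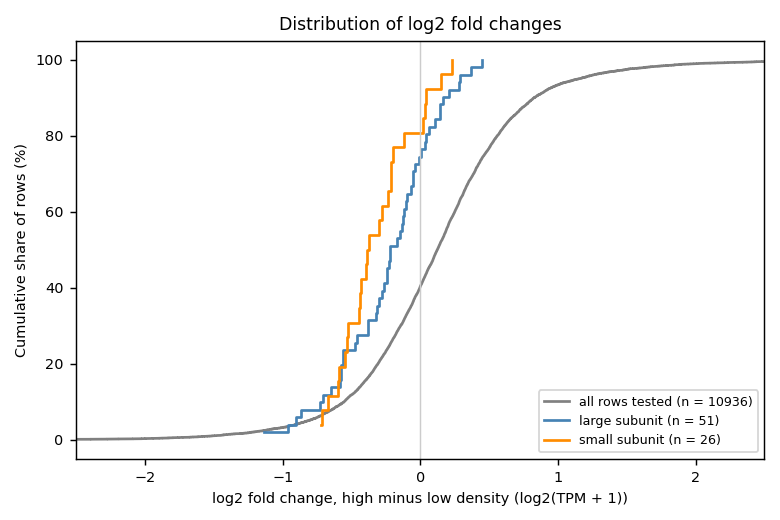
Cumulative share of rows by log2 fold change (high minus low density) for all rows tested (grey), large subunit genes (blue) and small subunit genes (orange). Both curves of mitoribosomal genes lie to the left of the grey curve over most of their range and end below a log2 fold change of 0.5.

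Mrpl12 was the gene that passed the test. Its product, the counterpart of bacterial L7/L12, forms the stalk of the large subunit to which translation factors bind, and has also been described as a partner of the mitochondrial RNA polymerase. Its RNA was at 353 and 492 TPM at low and 160.0 and 224 TPM at high density, so both high density values lay well below both low density values. The level fell 2.20-fold by mean TPM (log2 fold change −1.13 ± 0.26 SE, adjusted p by limma = 0.0252). By mean level it was exceeded among large subunit RNAs by Mrpl18 and Mrpl33. The call was lost without low density library 2 (log2 fold change −0.89, limma adjusted p = 0.559), after median centring (0.0585), after quantile normalisation (0.0768), without the variance trend (0.068), with length and GC content removed (0.0535) and with no filter (0.475), while the log2 fold change stayed between −0.89 and −1.38.

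The next largest decreases were also in the large subunit and did not pass. Mrpl20, the counterpart of an early-binding bacterial protein that helps to fold the ribosomal RNA, was at 158 and 250 TPM at low and 81.9 and 125 TPM at high density (log2 fold change −0.96 ± 0.29 SE, adjusted p by limma = 0.0717). Mrpl36, a very small protein of the large subunit, was at 136 and 153 TPM at low and 61.0 and 95.9 TPM at high density (−0.91 ± 0.27, 0.066). For both, the groups did not overlap, and high density library 1 was the lower one. Both were called with a filter of 5 TPM (limma adjusted p = 0.03995 and 0.0408), with the replicate block (0.0203 and 0.0412) and without either high density library. Neither was called without low density library 1 (0.09495 and 0.347) or 2, where the log2 fold changes were −0.63 and −0.82 (limma adjusted p = 0.904 and 0.738), nor after median centring, after quantile normalisation or with length and GC content removed. Mrpl41, a protein without a bacterial homologue, was at 32.3 and 40.5 TPM at low and 18.1 and 20.9 TPM at high density (by limma, adjusted p = 0.0809). Mrpl16, a protein near the peptidyl transferase centre, was at 72.6 and 66.3 TPM at low and 43.8 and 39.4 TPM at high density (0.101). In these 2 genes the high density libraries lay close to each other.

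Other proteins of the stalk and its base showed smaller differences. Mrpl11, at the stalk base, was at 53.1 and 70.5 TPM at low and 31.5 and 43.6 TPM at high density (log2 fold change −0.71, limma adjusted p = 0.147). Mrpl10, which anchors Mrpl12 to the ribosome, was at 99.3 and 98.2 TPM at low and 69.2 and 74.1 TPM at high density (−0.46, 0.265). The groups were apart in both genes, and neither passed the test.

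In the small subunit 0 of 26 genes were called, beside 2.11% of all rows called lower and 4.57% higher. At an unadjusted p under 0.05 by limma, 5 were lower and 0 higher, against 7.76% and 15.7% of all rows. These 5 were Mrps6, Mrps15, Mrps21, Mrps24 and Mrps33. Mrps15 was at 211 and 215 TPM at low and 125 and 157 TPM at high density (by limma, adjusted p = 0.147). Mrps6 was at 62.3 and 55.2 TPM at low and 27.5 and 45.0 TPM at high density (by limma, adjusted p = 0.157). Mrps24, the counterpart of bacterial protein S3 at the mRNA entry, was at 148 and 200.2 TPM against 95.0 and 115 TPM (0.111). Mrps33 was at 35.0 and 33.7 TPM against 20.5 and 21.9 TPM (0.146), a case where each pair of libraries was tight and the groups were apart. Mrps21 was at 268 and 296 TPM against 203 and 187 TPM (0.179). Mrps12, a protein of the decoding centre, was at 74.3 and 74.4 TPM against 55.8 and 71.2 TPM (0.613), where high density library 2 almost reached the low density values.

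A minority of genes lay on the other side. Mrpl43 was at 24.9 and 31.0 TPM at low and 34.8 and 42.2 TPM at high density (log2 fold change 0.45 ± 0.27 SE, adjusted p by limma = 0.34). Mrpl24 was at 54.8 and 49.0 TPM against 70.1 and 64.7 TPM (0.37 ± 0.24, 0.392). Mrpl45, which sits at the exit of the nascent chain tunnel and ties the ribosome to the inner membrane, was at 77.1 and 77.0 TPM against 94.0 and 84.4 TPM (0.644). Mrps30 was at 97.5 and 91.1 TPM against 98.7 and 114 TPM (0.717). These were the 4 genes in which both high density libraries exceeded both low density libraries, and none passed the test.

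In several other genes with positive values, such as Mrpl1 and Mrpl2, high density library 2 alone lay above both low density libraries. The values of 4 of these other genes are given here. Mrps22 was at 90.1 and 95.7 TPM at low density, 74.4 TPM in high density library 1 and 159 TPM in library 2. Mrpl32, whose maturation depends on a protease of the inner membrane, was at 134 and 166 TPM, then 139 and 238 TPM. Mrpl9 was at 158 and 168 TPM, then 157 and 249 TPM, and Mrps26 at 204 and 212 TPM, then 178 and 299 TPM. Without high density library 1 the log2 fold changes were 0.77 for Mrps22, 0.67 for Mrpl32, 0.61 for Mrpl9 and 0.52 for Mrps26. Over all rows tested the median was then 0.26. Without library 2 these 4 genes lay at −0.32, −0.10, −0.05 and −0.22 in the same order, beside a median of −0.03 over all rows.

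The homologues of bacterial protein S18 occur in 3 forms, Mrps18a in the large subunit and Mrps18b and Mrps18c in the small subunit. Mrps18c was the most abundant, at 280 and 390 TPM at low and 202 and 296 TPM at high density. Mrps18a was at 104 and 107 TPM at low and 63.8 and 146 TPM at high density, and Mrps18b at 62.6 and 67.0 TPM against 29.9 and 64.5 TPM. In these libraries the order Mrps18c, Mrps18a, Mrps18b held in all 4. The groups overlapped for each gene, and the log2 fold changes were −0.44, −0.12 and −0.55 (limma adjusted p = 0.354, 0.858 and 0.349). High density library 2 was above library 1 by a ratio of 2.29 for Mrps18a and 2.16 for Mrps18b.

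Mitoribosomal proteins outside the name pattern gave mixed values, with 0 of 5 called by limma, beside 2.11% of all rows called lower and 4.57% higher. At an unadjusted p under 0.05 by limma, where 7.76% of all rows were lower and 15.7% higher, the count was also 0 of these 5. Chchd1 was the most abundant of them, at 378 and 491 TPM at low and 266 and 344 TPM at high density (log2 fold change −0.51, limma adjusted p = 0.235). Ptcd3, a pentatricopeptide repeat protein, was at 97.3 and 99.1 TPM against 63.2 and 89.2 TPM (0.4). Dap3, a GTP-binding protein of the small subunit, was at 72.9 and 74.6 TPM against 84.7 and 81.7 TPM (0.705). Aurkaip1 was at 158 and 189 TPM against 143 and 182 TPM, and Gadd45gip1 at 88.4 and 90.2 TPM against 88.7 and 105 TPM. Among the 78 genes, Mrpl58, whose product is a ribosome component, was at 77.9 and 96.1 TPM against 76.5 and 97.2 TPM. Mrpl57 was at 67.0 and 86.4 TPM against 53.9 and 76.6 TPM. Mrps36, which is not a ribosomal protein, was at 23.1 and 24.9 TPM against 21.1 and 27.3 TPM, with a ratio of mean TPM of 1.01.

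Of 26 assembly factors of the mitoribosome (GTPases, helicases and enzymes that modify its RNA), 1 was called lower and 0 higher. At an unadjusted p under 0.05 by limma, 1 was lower and 1 higher, and the median log2 fold change was −0.05. Over all rows, 2.11% were called lower and 4.57% higher (7.76% and 15.7% at an unadjusted p under 0.05). The count of 1 called is thus near the background. The same shares stand beside the counts of the lists below. Mpv17l2, an inner membrane protein needed for ribosome assembly, fell from 85.2 and 72.1 TPM at low to 43.7 and 35.6 TPM at high density (log2 fold change −0.97 ± 0.25 SE, adjusted p by limma = 0.0432). The groups were well apart in this gene. Its call was lost without low density library 1 (0.558) or 2 (0.497), after median centring (0.063), after quantile normalisation (0.0703), without the variance trend (0.0765), with length and GC content removed (0.0744) and with no filter (0.36), while the log2 fold change stayed between −0.83 and −1.16. Ngrn was at 45.1 and 45.8 TPM at low and 61.9 and 75.8 TPM at high density (0.185). Fastkd2, which binds the large ribosomal RNA, was at 21.0 and 22.3 TPM against 7.89 and 19.8 TPM (0.266), and the methyltransferase gene Mrm3 at 24.7 and 32.6 TPM against 10.3 and 27.6 TPM (0.305). In both, high density library 1 stood far below library 2.

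Of 16 translation factors and related proteins, 0 were called, and 2 were lower and 0 higher at an unadjusted p under 0.05. The median was −0.14. Gfm1, elongation factor G1, was at 85.1 and 71.8 TPM at low and 40.2 and 52.1 TPM at high density (log2 fold change −0.76 ± 0.26 SE, adjusted p by limma = 0.101). Slirp and Lrpprc encode partners that stabilise mitochondrial mRNA. Slirp was at 73.8 and 109 TPM against 54.0 and 55.6 TPM (0.135), and Lrpprc at 93.4 and 75.2 TPM against 42.3 and 69.6 TPM (0.221). Tufm, elongation factor Tu, was at 42.3 and 43.4 TPM against 31.1 and 27.2 TPM (0.228). In these 4 genes, which had the smallest p of the list, both high density values lay below both low density values. Of the 16 genes this held for 6, against 20% of all rows. In 1 of the 16 they lay above, against 34.7%.

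Genes for the mitochondrial genome and its transcription gave 0 calls among 11 tested of 12, with a median of −0.19, and 0 at an unadjusted p under 0.05. Ssbp1, the single-stranded DNA binding protein, was at 41.3 and 48.6 TPM at low and 21.8 and 42.1 TPM at high density (by limma, adjusted p = 0.331). Tefm, a transcription elongation factor, was at 23.1 and 27.6 TPM against 10.7 and 26.2 TPM (0.401), and Tfb2m at 15.7 and 16.0 TPM against 10.8 and 12.9 TPM (0.441). Polg2, a subunit of the DNA polymerase, was at 5.90 and 7.65 TPM against 9.11 and 10.5 TPM (0.396). Top1mt lay below the filter.

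Of 11 regulators of mitochondrial gene expression 10 were tested, and limma called 0 (with an unadjusted p under 0.05, 1 higher and 0 lower). Their median log2 fold change was 0.20, near the 0.12 of all rows tested. Set against the low density mean, the list's median came to −0.12 for high density library 1 and 0.41 for library 2. Yy1, which encodes the factor of 1 of the motifs above, was at 112 and 90.3 TPM at low and 169 and 164 TPM at high density (log2 fold change 0.72 ± 0.24 SE, adjusted p by limma = 0.0891). Gabpa, the DNA-binding subunit of GABP, was at 58.2 and 47.2 TPM against 65.4 and 86.3 TPM (0.263). Gabpb2 was at 67.5 and 58.7 TPM against 57.3 and 124 TPM (0.487). Pprc1, a coactivator of the PGC-1 family, was at 69.1 and 71.2 TPM against 31.3 and 63.8 TPM (0.257). Nrf1 was at 30.5 and 26.5 TPM against 32.0 and 36.9 TPM (0.588), and the coactivator gene Ppargc1a lay below the filter.

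**Figure D4:**
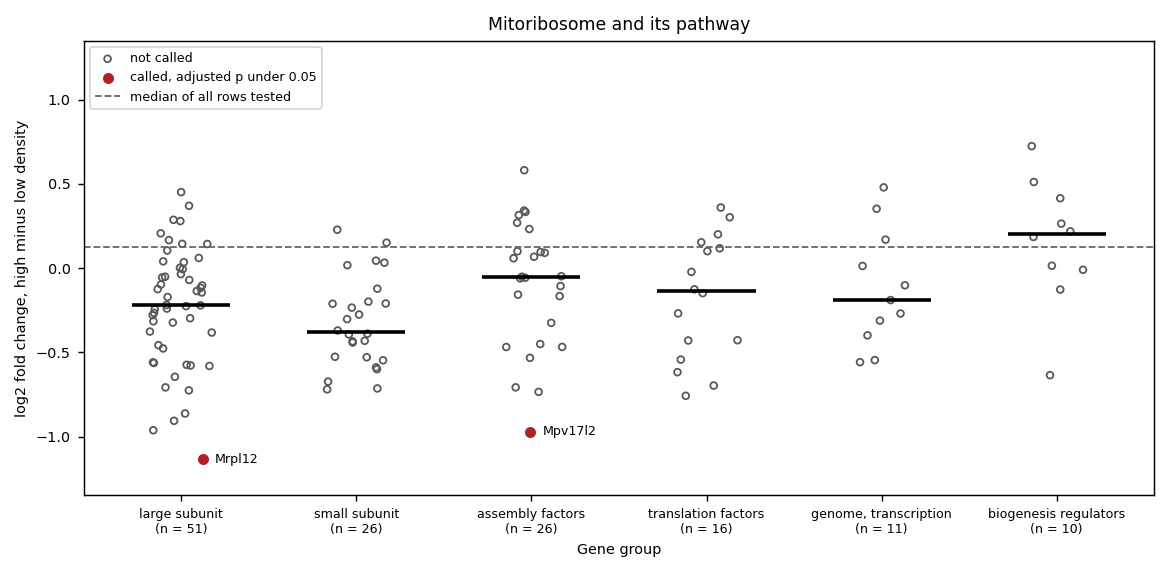
Log2 fold change (high minus low density) of each gene tested in the large and small subunit and in 4 lists of the same pathway; filled points were called by limma, black bars are medians and the dashed line is the median of all rows tested. Mrpl12 and Mpv17l2 are the filled points, and the median of the biogenesis regulators lies above the dashed line while the other medians lie below it.

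Cytosolic ribosomal protein genes differed from the mitochondrial ones between the high density libraries. Over all rows tested, 2.11% were called lower and 4.57% higher (7.76% and 15.7% at an unadjusted p under 0.05). Among 81 tested of 85 rows named as cytosolic ribosomal proteins, 4 were called lower and 0 higher. At an unadjusted p under 0.05 by limma, 16 were lower and 1 higher. The median log2 fold change of these genes was −0.10. Relative to the low density mean their median was −0.02 in high density library 1 and −0.20 in library 2, the reverse order of that seen for the mitochondrial genes (−0.47 and −0.02). Of the 81, 15 were higher in high density library 2 than in library 1, against 69 of the 78 mitochondrial ribosomal protein genes. The difference between the gene groups was not tested.

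Transcripts of the 78 genes were short, with a median length of 884 bases against 1456 for tested rows and a GC content of 51.2% against 51.0%. Across the 78 genes the log2 fold change correlated with log2 length at r = 0.18, with GC content at r = −0.16 and with log2 mean level at r = 0.0069, given as descriptions over genes of the same libraries. With length and GC content removed from every library the median log2 fold change of the 78 was −0.22, against 0.11 for all rows, with 0 called (16 lower at an unadjusted p under 0.05 by limma) beside 1.45% of all rows called lower and 3.83% higher.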

How the data were processed

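RNA was measured in 4 libraries of BEKO cells, 2 per density, made strand-specific per the labels' protocols. The authors deposited 1 table of TPM values with 25630 rows. Each column sums to 1000000. Genome build mm9 and DESeq2 1.2.10 appear in the submitters' processing notes with no role; aligner, counter, annotation and gene lengths are not stated in the sources used here. TPM keeps no depth, so read numbers are unknown and no counting interval is given. Rows above 0 TPM numbered 15553 and 13892 in the low and 13605 and 13758 in the high density libraries. The cause of the higher number in low density library 1 was not tested. Columns were tied to samples through the sample descriptions.

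The 10936 rows averaging at least 1 TPM were tested on log2(TPM + 1) with limma 3.58.1 in R 4.3.3 (group term, variance trend, two-sided, 2 residual and 9.53 prior degrees of freedom), with Benjamini-Hochberg adjustment over all rows tested. The procedure was tested on simulated data with equal, independent noise in both groups, set near the spread of the low density pair. That test therefore does not cover the wider spread of the high density pair. Subunits and lists follow textbook assignment; the members, lists and motifs were chosen with earlier results of these data known. Genes were named by rule: called genes, the 5 largest changes each way, the 5 highest and 3 lowest levels per subunit, genes of set roles, and per list the called genes and the 4 of smallest p. Mrpl1, Mrpl2, Mrpl10, Mrpl11, Mrpl37, Mrpl45, Mrps6, Mrps15, Mrps24 and Nrf1 were added after their values were seen. Genes without a matched promoter or with pseudogene copies are listed in full. Promoters are RefSeq's (GRCm38.p6), and lengths and GC content are medians over GENCODE transcripts. Alternatives covered pseudocount, filter, scaling, moderation, replicate block and leaving out each library. Length and GC removal was added after the data were seen.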

Additional observations from a re-analysis of the deposited data

How the results depend on the processing

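Counts of called genes depended on single libraries. Leaving out 1 library gave 181 to 3734 called rows in all (731 with all libraries), and 0 to 29 mitoribosomal genes called lower and 0 to 7 higher. In the large subunit this was 0 to 18 lower and 0 to 5 higher, in the small subunit 0 to 11 lower and 0 to 2 higher. It was 0 to 7 assembly factors, 0 to 4 translation factors, 0 to 2 genome and transcription genes and 0 to 4 regulators. The highest of these counts came from the fits without a high density library. In those fits the shares of all rows called, given above, rose too. Those fits also rest on the narrow spread of the low density pair. Their counts are therefore not read as a result about these genes, whether above or below the share of all rows. The difference was not tested. The median log2 fold change of the 78 genes ranged from −0.47 to −0.02. All rows called were 0 with no filter (2565 at an unadjusted p under 0.05), 314 after median centring and 360 after quantile normalisation. Of all calls 68.4% were higher at high density, but 50.96% after median centring and 60.0% after quantile normalisation. Log2 fold changes below 0 were found for 40 to 72 of the 78 genes. Of the 78, and of the large subunit, 0 were called lower with no filter, after median centring, after quantile normalisation, without the variance trend or with length and GC content removed (11 to 33 of the 78 lower at an unadjusted p under 0.05 by limma), 2 with robust moderation (2.43% of all rows called lower), and 3 with a filter of 5 TPM (3.00% of all rows). Assembly factors gave 0 calls under the same 5 settings that gave 0 for the large subunit, and translation factors gave 1 after median centring. The cause was not tested.

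With the replicate number as a block, 3 of the 78 (Mrpl12, Mrpl20 and Mrpl36, all in the large subunit) were called lower, beside 3.08% of all rows. The labels do not say that a number marks a shared batch, and deviations of same-numbered libraries correlated at r = 0.04 across all rows. Of the 53 named genes 2 were called, so a turned sign mostly concerns genes without a call. Of 795 log2 fold changes under the alternatives, 41 turned sign, in 21 genes, each without a call in either fit. TPM gives no read numbers, so what depth limits is unknown.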
